A study of Mus musculus with 12 samples.

Results

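The Slc25 genes encode the mitochondrial carriers, membrane proteins that exchange metabolites across the inner mitochondrial membrane. They were taken as the genes whose symbol starts with Slc25a followed by digits, without names that end in -ps. There were 42 of them among the 17859 genes of the deposited table with symbols, and each was found by its Ensembl identifier in the count table of 51912 genes. The members were grouped by the substrate that the literature gives for each: amino acids, adenine and pyrimidine nucleotides, phosphate, glutathione, cofactors, di- and tricarboxylates, carnitine or iron. A further class was uncoupling protein-like, and 7 genes were left without a substrate.

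The inner mitochondrial membrane is tight to most small molecules, and the carriers set which of them enter or leave the matrix, usually as a swap of one substrate for another. In hepatocytes they link reactions on both sides of the membrane: the urea cycle needs carriers for aspartate, ornithine and citrulline, fatty acid oxidation needs carriers for acylcarnitine, phosphate and ATP, and lipid synthesis needs citrate to leave the matrix. Carriers are made in the cytosol and inserted into the membrane by a dedicated import route, the TOM pore, the small TIM chaperones and the TIM22 complex.

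The study asked how CITCO, an activator of the human nuclear receptor CAR, acts on the liver of mice with mouse or human receptors. Liver RNA of 12 adult male mice was sequenced as 3′-end libraries, 1 library per mouse, in 4 groups of 3. Mice were injected intraperitoneally each day for 4 days and killed on day 5, at a CITCO dose that the labels give as 10 mg/kg. The published text also names a higher dose for liver RNA of the same 3 genotypes after the same 4 days, so sources conflict and the dose of these libraries is uncertain. The groups were WT mice given corn oil, the vehicle; WT mice given CITCO; hCAR/hPXR mice, in which human CAR and PXR replace the mouse receptors, given CITCO; and Car KO/hPXR mice, which lack mouse Car and carry human PXR, given CITCO. The engineered lines were made on a C57BL/6NTac background, and the strain of the WT mice is not stated in the labels. Corn oil libraries came from WT mice alone, so in the engineered lines the genotype and the response to CITCO cannot be told apart.

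Library totals were 1451214, 1600713 and 2341572 expected counts in WT corn oil (lowest, median and highest), and 1370357, 1577720 and 1654448 in WT CITCO. They were 1167027, 1726056 and 2012820 in hCAR/hPXR CITCO, and 1172227, 1255188 and 1499517 in Car KO/hPXR CITCO. Levels are given as CPM, counts scaled to the size of each library after edgeR's TMM factors. At this depth 3 counts, the limit that a count of 0 allows, corresponded to 1.34 to 2.5 CPM. The labels mention no molecular identifiers, so the exact intervals of shares and the floors cover counting error only; intervals of fold changes are edgeR's and include variation between mice.

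The labels were checked against marker genes. The summed level of 5 hepatocyte genes was 17562 to 33166 CPM over the 12 libraries, with Alb the most abundant. Summed levels were 1859 to 3988 CPM for 6 red blood cell genes (Hba-a2 the highest), 253 to 485 CPM for 6 Kupffer cell genes (Cd5l) and 184 to 361 CPM for 5 stellate cell genes (Dcn). They were 173 to 228 CPM for 5 sinusoidal endothelial genes (Kdr), 7.74 to 22.2 CPM for 4 cholangiocyte genes (Sox9), 2.46 to 12.5 CPM for 5 lymphocyte genes (Ptprc) and 0 to 1.95 CPM for 3 white adipocyte genes (Adipoq), 1 of them at 0 in all 12 libraries. The group sums are given here as mean ± SD (n = 3 each) with both WT groups first, corn oil before CITCO, then hCAR/hPXR and last Car KO/hPXR. The Kupffer cell sum was 285 ± 28.3, 379 ± 75.9, 418 ± 75.3 and 332 ± 28.3 CPM, and the red blood cell sum was 3069 ± 793, 3001 ± 1000, 2016 ± 168 and 2726 ± 650 CPM. The stellate cell sum was 242 ± 12.9, 293 ± 60.6, 281 ± 17.9 and 227 ± 39.9 CPM, and the sinusoidal endothelial sum was 212 ± 9.80, 200 ± 14.9, 184 ± 10.5 and 209 ± 16.8 CPM. The cholangiocyte sum was 20.6, 21.9 and 21.1 CPM in the 3 WT corn oil libraries and 16.9, 10.4 and 7.74 in WT CITCO, with no overlap. No overlap was also seen for 14.7% of all genes tested in this comparison. Of the 4 cholangiocyte genes only Sox9 was tested (log2 fold change -0.74, edgeR's adjusted p = 0.519). The sum had means of 16.1 and 19.0 CPM in hCAR/hPXR and Car KO/hPXR CITCO. The means of the lymphocyte sum were 5.85, 8.42, 10.8 and 7.33 CPM. The hepatocyte sum was 26392 ± 2001, 28587 ± 4041, 23358 ± 8540 and 29015 ± 1671 CPM, with hCAR/hPXR replicate 3 at 33166 CPM against 17562 and 19347 CPM in the other 2. Several lists thus shifted between groups. All 6 Kupffer cell genes were higher in WT CITCO than in WT corn oil (median log2 fold change 0.46). All 5 tested red blood cell genes were lower in hCAR/hPXR than in WT CITCO (-0.54) and against Car KO/hPXR CITCO (-0.34). All 4 tested stellate cell genes were lower in Car KO/hPXR than in WT CITCO (-0.31). So were 5 of 6 Kupffer cell genes (-0.35) and 4 of 5 sinusoidal endothelial genes (-0.38). In hCAR/hPXR against WT CITCO 4 of 6 Kupffer cell genes were lower (-0.21) and 2 higher. Against WT CITCO, the Kupffer cell sum in hCAR/hPXR and the endothelial sum in Car KO/hPXR thus moved otherwise than most of their genes. Of all marker genes edgeR (28 tested), DESeq2 (17 to 29) and limma (40) called 0 in each pairwise comparison. Of all genes they called 0.233% to 0.582%, 0.500% to 2.46% and 0.123% to 0.314%, so 0 calls among so few genes says little. The lowest adjusted p among the marker genes was 0.171 with DESeq2, for Hbb-bs in hCAR/hPXR against WT CITCO (-0.65). The part of cell composition in the carrier values was not tested. The mouse gene for PXR, Nr1i2, had 199, 100 and 155 counts in WT corn oil and 114, 113 and 126 in WT CITCO, against 0, 1 and 0 in hCAR/hPXR and 2, 0 and 0 in Car KO/hPXR mice. The mouse gene for CAR, Nr1i3, had 287, 104 and 215 counts in WT corn oil and 184, 116 and 207 in WT CITCO, against 2, 0 and 6 in hCAR/hPXR and 3, 2 and 5 in Car KO/hPXR mice. Both genes were thus nearly free of counts in all 6 libraries of the engineered lines, as labelled. Cyp2b10, a CAR target, stood at 155 ± 10.6 CPM in the hCAR/hPXR CITCO group and at 2.28 ± 1.62 CPM in the WT CITCO group (SD, n = 3 each).

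Skeletal muscle transcripts set 2 libraries apart. The summed level of Acta1, Ckm and Myh4 ranged from 0 to 117 CPM. Acta1, the most abundant of the 3, was at 61.6 CPM in WT CITCO replicate 1, 56.5 CPM in hCAR/hPXR CITCO replicate 1 and 11.4 CPM in Car KO/hPXR CITCO replicate 1, and at 4.84 CPM or less in the other 9 libraries. Acly, Alas1 and the medians of the amino acid, nucleotide and cofactor classes are given below with and without them. Slc25a4 is given with and without WT CITCO replicate 1.

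Together the 42 genes held between 0.269% of the counts, in hCAR/hPXR CITCO replicate 1, and 0.394%, in WT corn oil replicate 3. Their summed level was 3482 ± 282 CPM (SD, n = 3) in WT corn oil, 3074 ± 173 in WT CITCO, 2988 ± 191 in hCAR/hPXR CITCO and 3481 ± 166 in Car KO/hPXR CITCO. The amino acid carriers took the largest median share of this sum over the 12 libraries, 34.9% (29.1% to 37.3%). The genes without an assigned substrate, chiefly Slc25a47, took 17.2% (12.8% to 26.8%), the nucleotide carriers 10.8%, the phosphate carrier 9.80%, the glutathione carriers 8.24% and the cofactor carriers 7.47%. The di- and tricarboxylate carriers took 5.66%, the carnitine carrier 2.92%, the iron carriers 2.40% and the uncoupling protein-like genes 0.118%. The family's sum is thus concentrated in a few genes. By mean CPM over 12 libraries, without division by gene length since 3′-end reads come from the end of each transcript, the order began with Slc25a13 (592), Slc25a47 (500), Slc25a15 (395), Slc25a3 (313), Slc25a39 (262), Slc25a5 (238) and Slc25a51 (147). It went on with Slc25a20 (91.0), Slc25a23 (75.5) and Slc25a10 (67.6). In this order the ranges over libraries of each neighbouring pair overlapped down to Slc25a5, and that of Slc25a51 also reached into the range of Slc25a5.

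**Figure D1:**
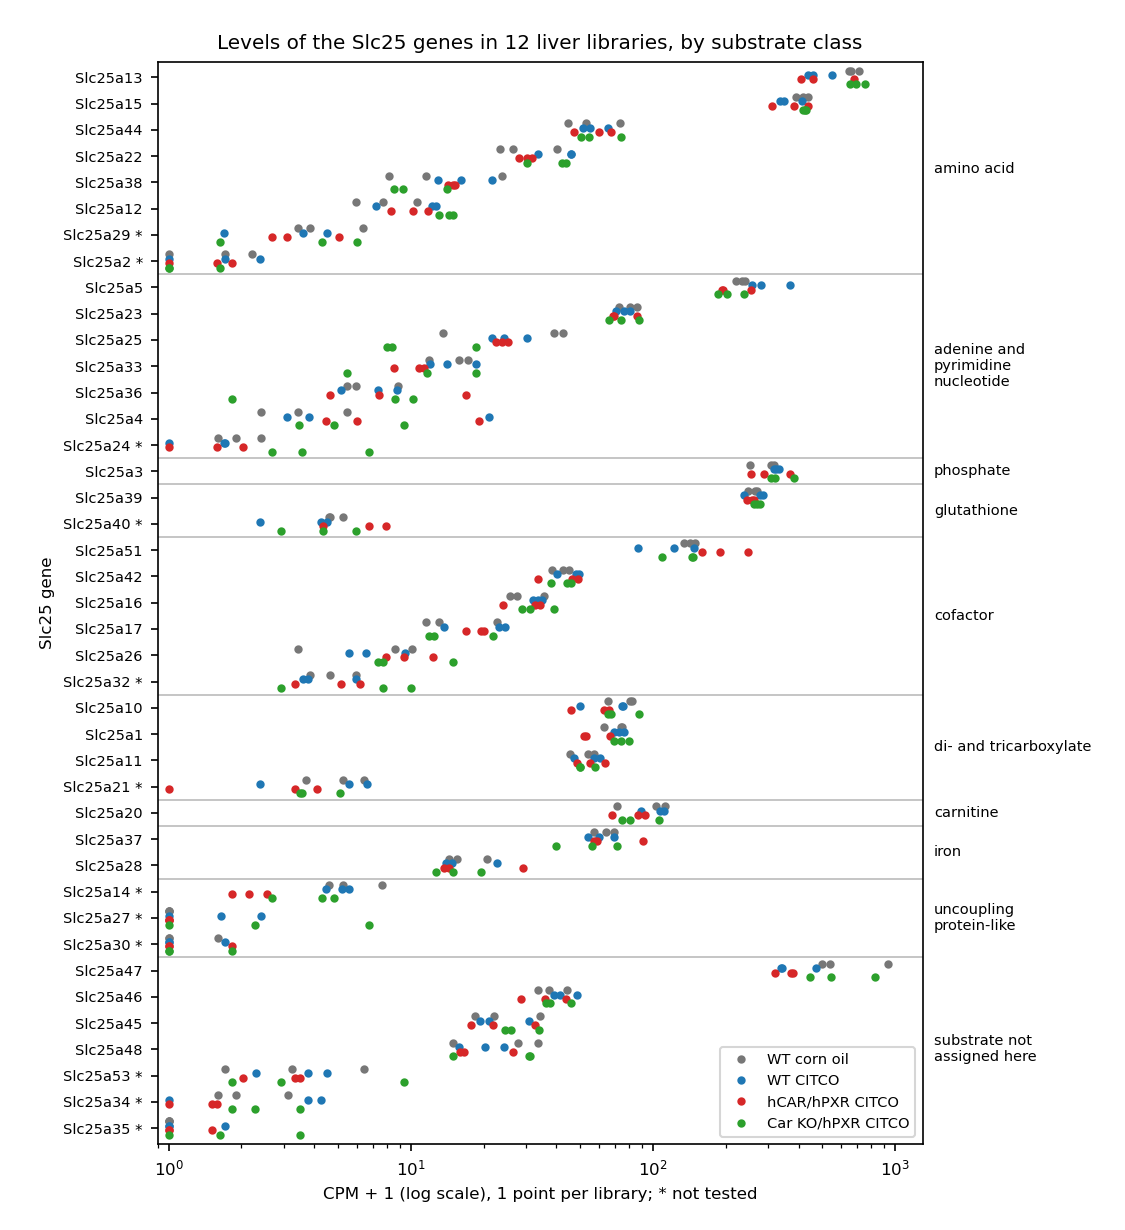
Level of the Slc25 genes, 1 member not shown, in CPM plus 1 on a log axis, with 1 point per library coloured by group, and genes ordered by substrate class and mean level. The 12 genes marked with a star did not pass the count filter, and the highest mean levels, above 200 CPM, belong to Slc25a13, Slc25a15, Slc25a3, Slc25a39, Slc25a5 and Slc25a47.

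Of the 42 genes, 30 passed edgeR's expression filter and were tested with 8594 genes in all. The 12 that did not pass were Slc25a32, Slc25a40, Slc25a14, Slc25a21, Slc25a29, Slc25a53, Slc25a24, Slc25a34, Slc25a27, Slc25a2, Slc25a35 and Slc25a30, which had totals over the 12 libraries of 77, 72, 61, 60, 54, 49, 23, 23, 12, 9, 6 and 4 counts. They were therefore not tested in this fit. Without the filter edgeR tested all 42 carriers, as did limma, and neither called any of these 12.

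The groups were compared in 4 pairs, and a test over all 4 groups asked for any difference. WT CITCO against WT corn oil asks what CITCO does in mice with mouse receptors. Both engineered lines were set against WT CITCO, and these 3 comparisons share the WT CITCO libraries. The comparison of hCAR/hPXR with Car KO/hPXR mice, both given CITCO, asks what differs with human CAR. In bulk liver, fewer cells of a type and less RNA per cell cannot be told apart. A gene was called at an adjusted p under 0.05 in edgeR's quasi-likelihood F test, with adjustment by the Benjamini-Hochberg method over all genes tested, and a fold change over 1.5; the test over 4 groups had no fold criterion.

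With edgeR, 0 of the 30 carriers were called in WT CITCO against WT corn oil, where 0.233% of all genes tested were called (20 of 8594). An unadjusted p under 0.05 was met by 3 of the 30 carriers and by 9.13% of all genes. In hCAR/hPXR against WT CITCO, edgeR called 0 of 30 carriers and 0.407% of all genes (35), with 2 carriers and 8.81% of all genes at an unadjusted p under 0.05. In Car KO/hPXR against WT CITCO, edgeR called 0 of 30 and 0.256% of all genes (22), with 4 carriers and 9.30% of all genes under the unadjusted limit. These shares of carriers lie near the background of all genes. In hCAR/hPXR against Car KO/hPXR CITCO, edgeR called 0 of 30 and 0.582% of all genes (50), with 5 carriers and 10.6% of all genes under the unadjusted limit. The edgeR test over 4 groups called 0 of 30 and 1.42% of all genes (122), with 5 carriers and 11.6% of all genes under the unadjusted limit.

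Both other tools gave few calls. DESeq2, after its own filter, called 0 of 31 carriers in WT CITCO against WT corn oil (0.500% of all genes), 1 of 18 in hCAR/hPXR against WT CITCO (1.96%) and 0 of 18 in Car KO/hPXR against WT CITCO (1.88%). It called 0 of 19 in hCAR/hPXR against Car KO/hPXR CITCO (2.46%) and 2 of 18 in the test over 4 groups (6.14%). The single pairwise call was Slc25a51, and the calls over 4 groups were Slc25a13 and Slc25a47. With limma on the deposited transformed values, 0 of 42 carriers were called in the 4 pairwise comparisons, in which 0.123%, 0.207%, 0.185% and 0.314% of all genes were called in the order above, and 0 of 42 in the test over 4 groups (0.605%). Leaving out the count filter, edgeR tested all 42 carriers among 20067 genes. It then called Slc25a47 in WT CITCO against WT corn oil (0.892% of all genes called), Slc25a51 in hCAR/hPXR against WT CITCO (0.917%), Slc25a25 and Slc25a47 in Car KO/hPXR against WT CITCO (1.13%), Slc25a47 in hCAR/hPXR against Car KO/hPXR CITCO (1.16%) and these 3 genes over 4 groups (2.69%). Which carriers are called thus depends on the tool and the filter.

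The carriers had no common direction. In WT CITCO against WT corn oil 18 of the 30 were higher and 12 lower, with a median log2 fold change of 0.04 beside -0.000278 over all genes tested. In hCAR/hPXR against WT CITCO 12 were higher and 18 lower (median -0.08, all genes 0.01), and in Car KO/hPXR against WT CITCO 15 were higher and 15 lower (median -0.00462, all genes -0.00395). In hCAR/hPXR against Car KO/hPXR CITCO 12 were higher and 18 lower, with a median of -0.07 beside 0.01 over all genes tested. The precision of single genes set what could be seen: the median 95% confidence interval reached 0.48, 0.48, 0.49 and 0.49 log2 to either side of the estimate in the 4 comparisons. Intervals lay within a doubling or halving for 19, 23, 19 and 18 of the 30 genes, and within 1.5-fold for 10, 8, 11 and 9. A p that misses the threshold therefore does not show that a carrier did not differ.

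**Figure D2:**
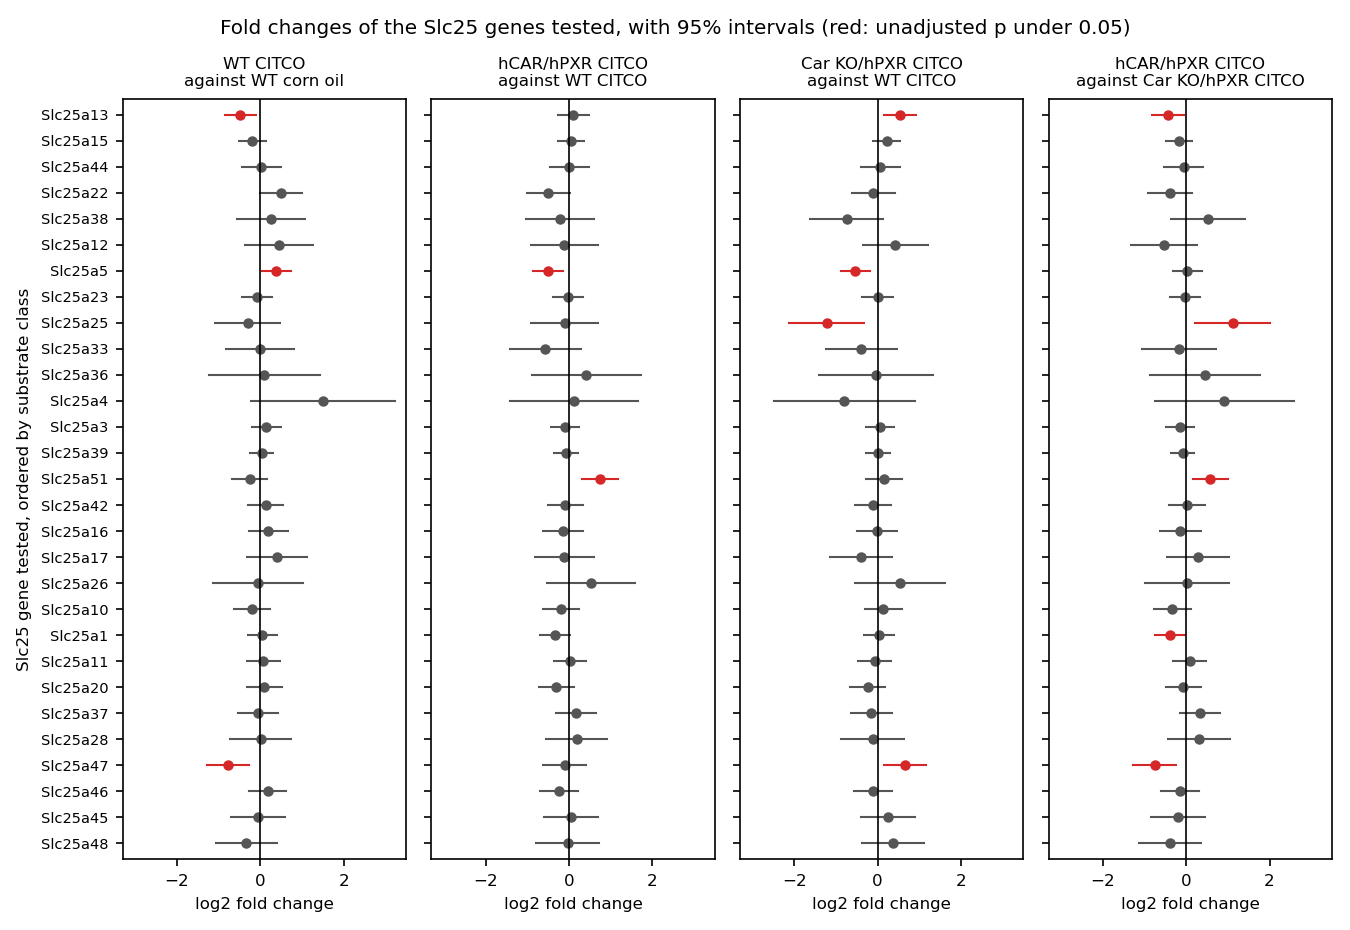
Log2 fold change of the tested carriers, 1 not shown (horizontal axis), in the 4 comparisons, ordered by substrate class, with lines for the 95% confidence intervals and red for an unadjusted p under 0.05. Points lie on both sides of 0 in each comparison, and the widest intervals belong to genes with few counts such as Slc25a4.

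An unadjusted p under 0.05 in a pairwise comparison was met by 6 carriers: Slc25a13, Slc25a47 and Slc25a5 in 3 comparisons each, Slc25a51 and Slc25a25 in 2 each, and Slc25a1 in 1. Since none was called by edgeR with the count filter, their group values are described below as levels, with the adjusted p beside each difference; the intervals are not adjusted for the number of genes.

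**Figure D3:**
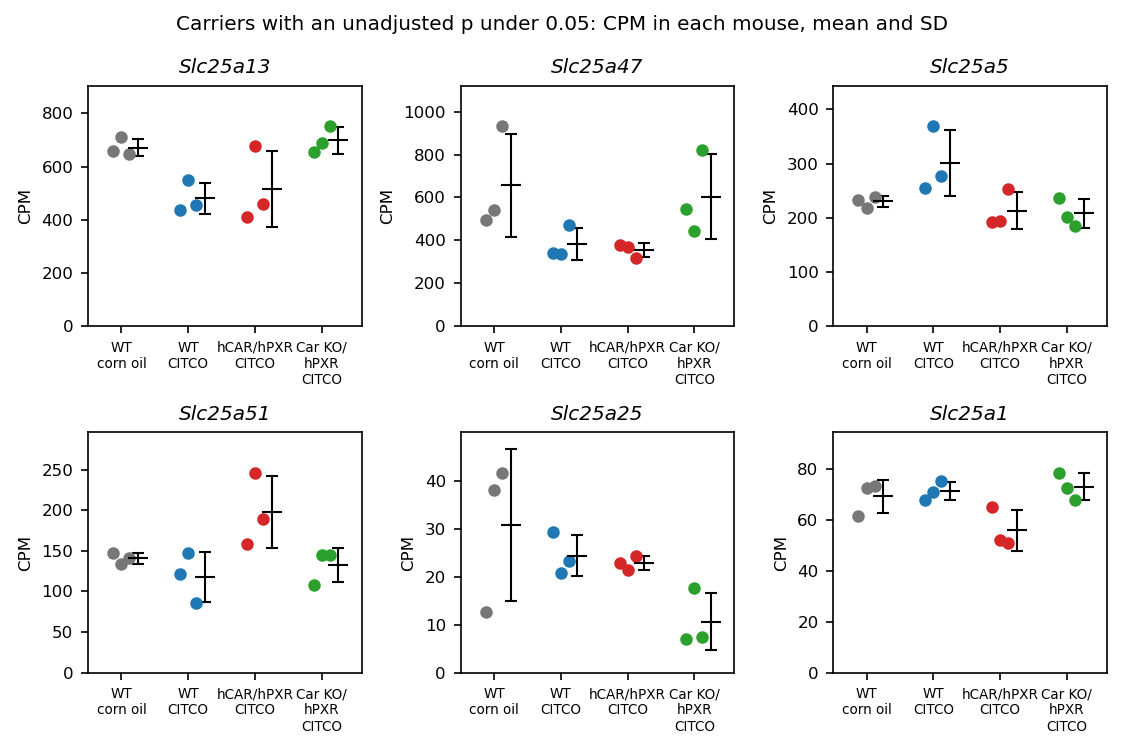
CPM of the 6 carriers with an unadjusted p under 0.05 in a pairwise comparison, with 1 point per mouse and the mean and SD of each group of 3 beside the points, on vertical axes that start at 0. Slc25a13 and Slc25a47 have their lower means in WT CITCO and hCAR/hPXR CITCO, Slc25a5 has its highest mean in WT CITCO and Slc25a51 in hCAR/hPXR CITCO.

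The promoters of the 3 carriers that met the unadjusted limit in the most comparisons are shown so that the sequence before their start can be read beside their values. Each is a run of 300 bases around the start annotated in RefSeq, most of them before it, written 5′ to 3′ on GRCm38.p6, and capitals mark every match to a searched motif. That of Slc25a13 is at chr6:6217124-6217423 on the minus strand, that of Slc25a47 at chr12:108850879-108851178 on the plus strand and that of Slc25a5 at chrX:36795347-36795646 on the plus strand. The gene coordinates given further below are from GENCODE, which starts Slc25a47 upstream of this run and Slc25a5 just after it, so the start of these genes differs between annotations.
Slc25a13: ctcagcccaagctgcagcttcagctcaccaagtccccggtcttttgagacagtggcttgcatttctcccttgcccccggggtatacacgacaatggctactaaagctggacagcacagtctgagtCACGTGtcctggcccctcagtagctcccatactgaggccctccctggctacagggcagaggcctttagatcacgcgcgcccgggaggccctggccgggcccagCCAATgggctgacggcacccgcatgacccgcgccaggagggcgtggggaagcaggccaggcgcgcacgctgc
Slc25a47: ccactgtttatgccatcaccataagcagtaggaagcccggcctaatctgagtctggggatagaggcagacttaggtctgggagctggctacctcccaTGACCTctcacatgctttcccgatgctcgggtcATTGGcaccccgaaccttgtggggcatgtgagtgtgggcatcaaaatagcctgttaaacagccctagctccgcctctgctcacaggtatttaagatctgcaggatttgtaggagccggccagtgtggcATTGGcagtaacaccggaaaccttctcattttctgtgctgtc
Slc25a5: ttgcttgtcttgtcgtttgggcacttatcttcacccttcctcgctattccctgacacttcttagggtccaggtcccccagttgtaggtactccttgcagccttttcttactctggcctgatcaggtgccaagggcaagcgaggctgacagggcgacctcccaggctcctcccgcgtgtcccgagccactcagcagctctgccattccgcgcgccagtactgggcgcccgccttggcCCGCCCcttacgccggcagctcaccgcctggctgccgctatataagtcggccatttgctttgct
The 8 motifs, searched on both strands, were the nuclear receptor half-site AGGTCA, its direct repeats with a spacer of 1 or 4 bases (both contain the half-site), the E-box CACGTG, the cyclic AMP response element TGACGTCA, the ETS core CCGGAAG, the GC box GGGCGG and CCAAT. Slc25a13 had 1 CACGTG and 1 CCAAT, Slc25a47 had 1 AGGTCA and 2 CCAAT, all on the reverse strand, and Slc25a5 had 1 GGGCGG on the reverse strand. A match is a description, and no match says only that these letters are not in this window.

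Of the 42 carriers 32 had at least 1 promoter in the RefSeq table, 42 promoters in all. Among those without an entry were Slc25a2, Slc25a26, Slc25a27, Slc25a32, Slc25a35, Slc25a37, Slc25a44, Slc25a46 and Slc25a51. GGGCGG was present in 85.7% of the Slc25 promoters and in 35.7% of all 32851 promoters of the same length, and CCAAT in 52.4% and 37.4%. CACGTG was present in 16.7% and 7.15%, CCGGAAG in 14.3% and 8.86%, TGACGTCA in 4.76% and 1.79%, and AGGTCA in 9.52% and 16.3%. The direct repeats were in 0% of the Slc25 promoters, and in 0.0396% (spacer 1) and 0.0152% (spacer 4) of all. The median GC content was 59.3% in the Slc25 promoters and 52.7% in all, and these shares were not tested.

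Among the amino acid carriers, Slc25a13 (citrin) exchanges aspartate for glutamate and so feeds both the malate-aspartate shuttle and the urea cycle. Its level was 659, 709 and 647 CPM in the WT corn oil libraries, 437, 548 and 456 in WT CITCO, 409, 679 and 459 in hCAR/hPXR CITCO and 654, 690 and 752 in Car KO/hPXR CITCO. All 3 WT CITCO libraries lay below all 6 of WT corn oil and Car KO/hPXR CITCO, and hCAR/hPXR replicate 2 lay apart from the other 2 of its group, within the range of the higher groups. The log2 fold change was -0.48 in WT CITCO against WT corn oil (95% interval -0.86 to -0.11, adjusted p = 0.376) and 0.54 in Car KO/hPXR against WT CITCO (0.16 to 0.91, adjusted p = 0.269). In hCAR/hPXR against Car KO/hPXR CITCO it was -0.44 (-0.81 to -0.06, adjusted p = 0.373). None of these passed. Without hCAR/hPXR replicate 2 the last was -0.69 (adjusted p = 0.0739). The exact two-sided permutation test gave p = 0.1 for the first and second, the smallest value that 3 mice against 3 can give. DESeq2's test over 4 groups gave an adjusted p of 0.0448 for Slc25a13, where edgeR's gave 0.269.

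Slc25a12 (aralar) carries the same substrates, and Slc25a13 held between 97.4% and 99.3% of the counts of the pair in every library. The ornithine carrier of the urea cycle, Slc25a15, had 438, 418 and 389 CPM in WT corn oil, 333, 413 and 346 in WT CITCO, 310, 384 and 437 in hCAR/hPXR CITCO and 426, 416 and 430 in Car KO/hPXR CITCO. Its groups overlapped except that the 3 Car KO/hPXR libraries lay above the 3 of WT CITCO. Its relative Slc25a2 had at most 2 counts in a library, so that Slc25a15 held 99.7% to 100% of the pair. The other tested amino acid carriers were lower: mean levels, again without length division, were 56.9 CPM for Slc25a44 (branched-chain amino acids), 34.1 for Slc25a22 (glutamate), 13.3 for Slc25a38 (glycine) and 9.77 for Slc25a12. Over the 6 tested genes of the class the median log2 fold change was 0.14 in WT CITCO against WT corn oil, -0.05 in hCAR/hPXR against WT CITCO, 0.14 in Car KO/hPXR against WT CITCO and -0.28 in hCAR/hPXR against Car KO/hPXR CITCO. Without both libraries with the most muscle transcripts these medians were 0.04, 0.11, 0.10 and -0.18, so the second changed sign. The summed level of the class, most of it from Slc25a13 and Slc25a15, moved otherwise than its median, from 1196 ± 42.2 CPM in WT corn oil to 970 ± 109 in WT CITCO (SD, n = 3 each), with no overlap.

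Some of the enzymes that these carriers serve were summed beside them. The malate-aspartate shuttle enzymes (Got1, Got2, Mdh1 and Mdh2) stood at 2271 ± 62.0 CPM in WT corn oil, 2020 ± 52.8 in WT CITCO, 2196 ± 256 in hCAR/hPXR CITCO and 2443 ± 79.1 in Car KO/hPXR CITCO (SD, n = 3 each). The branched-chain amino acid enzymes stood at 262 ± 12.0, 234 ± 40.0, 261 ± 37.9 and 267 ± 39.9 CPM in the same order. The glutamate and glycine enzymes stood at 1272 ± 107, 1417 ± 112, 1284 ± 114 and 1294 ± 152 CPM. The shuttle sum was thus lower in WT CITCO than in WT corn oil. The mean of the glutamate and glycine sum was higher, with overlapping libraries, but this sum includes Alas1, which was called and is described below. Of its 5 genes 2 were higher and 3 lower, with a median log2 fold change of -0.20 and a highest of 1.73, that of Alas1. Of the 4 shuttle enzymes edgeR, DESeq2 and limma called none.

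Among the nucleotide carriers, Slc25a5 and Slc25a4 are ADP/ATP carriers, which send newly made ATP to the cytosol. Slc25a5 had 232, 219 and 239 CPM in WT corn oil, 255, 369 and 278 in WT CITCO, 193, 194 and 253 in hCAR/hPXR CITCO and 237, 202 and 185 in Car KO/hPXR CITCO. The 3 WT CITCO libraries were the 3 highest of all 12, the lowest of them just above hCAR/hPXR replicate 3. The log2 fold change was 0.39 in WT CITCO against WT corn oil (95% interval 0.03 to 0.74, adjusted p = 0.497), -0.50 in hCAR/hPXR against WT CITCO (-0.85 to -0.15, adjusted p = 0.320) and -0.53 in Car KO/hPXR against WT CITCO (-0.89 to -0.17, adjusted p = 0.256). None passed, and between both engineered lines the value was 0.03 (-0.33 to 0.39). The first value rested in part on WT CITCO replicate 2, and was 0.22 without it (adjusted p = 0.809).

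Slc25a4, the ADP/ATP carrier of heart and skeletal muscle, had 10, 2 and 4 counts in WT corn oil, 31, 3 and 4 in WT CITCO, 35, 6 and 6 in hCAR/hPXR CITCO and 6, 10 and 3 in Car KO/hPXR CITCO. Replicate 1 of WT CITCO (20.1 CPM) and of hCAR/hPXR CITCO (18.1 CPM) stood above the other 10 libraries (1.41 to 8.35 CPM), and these were the libraries with the most Acta1, Ckm and Myh4. Ckm stood at 42.2 and 24.9 CPM in them, while all 3 muscle transcripts were at or under 4.84 CPM in 9 of the other 10 libraries. Slc25a4 showed the largest log2 fold change of any tested carrier in WT CITCO against WT corn oil, 1.51 (95% interval -0.22 to 3.24, adjusted p = 0.620). It was -0.24 without WT CITCO replicate 1 (adjusted p = 0.972), a change of direction. The part of muscle RNA in this value was not tested beyond leaving out the library. Of the counts of Slc25a5 and Slc25a4 together, Slc25a5 held 92.7% (95% exact binomial interval 89.8% to 95%) in WT CITCO replicate 1 and 91.4% (88.2% to 93.9%) in hCAR/hPXR CITCO replicate 1, and between 96.0% and 99.4% in the other 10 libraries.

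**Figure D4:**
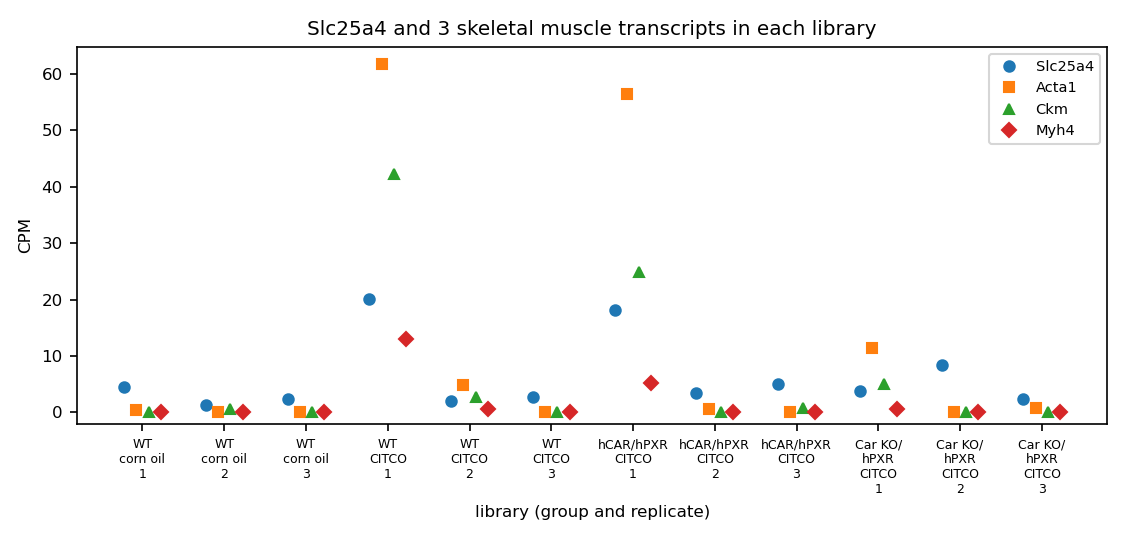
CPM of Slc25a4 and of the skeletal muscle transcripts Acta1, Ckm and Myh4 in each of the 12 libraries, with 1 symbol per gene. All 4 genes have their highest values in replicate 1 of WT CITCO and of hCAR/hPXR CITCO.

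Slc25a23, Slc25a25 and Slc25a24 are ATP-magnesium/phosphate carriers gated by calcium, which change the size of the matrix adenine nucleotide pool. Slc25a23 varied little, between 64.9 and 86.8 CPM over all libraries. Slc25a25 had 12.5, 38.1 and 41.7 CPM in WT corn oil, 29.2, 20.7 and 23.2 in WT CITCO, 22.8, 21.4 and 24.2 in hCAR/hPXR CITCO and 6.99, 17.5 and 7.39 in Car KO/hPXR CITCO. The 3 Car KO/hPXR libraries lay below all 6 of the other groups given CITCO, while WT corn oil replicate 1 lay among them, apart from the other 2 of its group. The log2 fold change was -1.22 in Car KO/hPXR against WT CITCO (95% interval -2.12 to -0.33, adjusted p = 0.310), the largest there, and 1.12 in hCAR/hPXR against Car KO/hPXR CITCO (0.22 to 2.01, adjusted p = 0.334), again the largest. Neither passed with the count filter; without it edgeR called the first (adjusted p = 0.0346). Without WT corn oil replicate 1 the test over 4 groups gave Slc25a25 an adjusted p of 0.0314, the single carrier call among the fits that left out 1 library. Slc25a25 shares 379 exon bases with Naif1 on the opposite strand.

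As a class, the 6 tested nucleotide carriers had median log2 fold changes of 0.04, -0.07, -0.46 and 0.24 in the 4 comparisons (WT CITCO against WT corn oil, hCAR/hPXR and Car KO/hPXR against WT CITCO, and hCAR/hPXR against Car KO/hPXR CITCO). In Car KO/hPXR against WT CITCO 5 of the 6 were lower, but without WT CITCO replicate 1 only 3 of 6 were (median -0.27). Without both libraries with the most muscle transcripts 5 genes of the class were tested, as Slc25a4 no longer passed the filter, and 3 of these 5 were lower (median -0.53). The other medians were then -0.07, 0.02 and 0.09. In hCAR/hPXR against WT CITCO the median was -0.28 without hCAR/hPXR replicate 1 alone, and 0.01 without WT CITCO replicate 1 alone.

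The phosphate carrier Slc25a3 brings in phosphate for ATP synthesis. It had 308, 251 and 315 CPM in WT corn oil, 320, 332 and 316 in WT CITCO, 288, 254 and 368 in hCAR/hPXR CITCO and 319, 382 and 307 in Car KO/hPXR CITCO. The groups lay close together, with WT CITCO just above WT corn oil, and the log2 fold change between them was 0.15 (95% interval -0.19 to 0.48, adjusted p = 0.837). The other 3 intervals lay between -0.49 and 0.40.

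Slc25a39 takes glutathione into the matrix. It was the steadiest of the carriers, with a coefficient of variation of 5.38% over the 12 libraries and a range of 237 to 283 CPM. The log2 fold changes in the 4 comparisons were 0.03 (95% interval -0.25 to 0.31), -0.07 (-0.35 to 0.21), 0.01 (-0.27 to 0.30) and -0.08 (-0.37 to 0.20), so that changes beyond these bounds lay outside its intervals. Its relative Slc25a40 was not tested, and Slc25a39 held 97.4% to 99.5% of the pair's counts.

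Among the cofactor carriers, Slc25a51 brings NAD+ into the matrix. It had 148, 134 and 141 CPM in WT corn oil, 121, 147 and 85.8 in WT CITCO, 158, 246 and 189 in hCAR/hPXR CITCO and 108, 144 and 145 in Car KO/hPXR CITCO. The 3 hCAR/hPXR libraries were the 3 highest of all 12. The log2 fold change was 0.74 in hCAR/hPXR against WT CITCO (95% interval 0.32 to 1.17, adjusted p = 0.177), the largest of any tested carrier there, and 0.58 in hCAR/hPXR against Car KO/hPXR CITCO (0.16 to 1.0, adjusted p = 0.266). With edgeR and its count filter neither passed, and without the filter edgeR called the first (0.75, adjusted p = 0.0123). With DESeq2 the first was 0.73 at an adjusted p of 0.0480, where fewer genes entered the adjustment, and the second was 0.57 at 0.183. The exact two-sided permutation test gave p = 0.1 for both. The annotation places the microRNA gene Gm25692 on the same strand within an exon of Slc25a51, over 125 bases, so its counts are less certain. The expected counts of Slc25a51 were whole in every library, so no sign of divided reads was seen.

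Of the other tested cofactor carriers, mean levels were 42.5 CPM for Slc25a42 (coenzyme A), 30.6 for Slc25a16, 16.6 for Slc25a17 (the peroxisomal member) and 7.62 for Slc25a26 (S-adenosylmethionine), without length division. Slc25a26 had expected counts that were not whole in 12 of 12 libraries, so reads shared with other genes make its values uncertain. The class medians were 0.16, 0.02, 0.08 and 0.02 log2 in the 4 comparisons, in the order given for the nucleotide carriers. Without both libraries with the most muscle transcripts they were 0.10, 0.02, 0.07 and -0.14. Without hCAR/hPXR replicate 1 alone the second was -0.07, and without WT CITCO replicate 1 alone it was 0.17.

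Slc25a20 exchanges acylcarnitine for carnitine and so brings fatty acids in for oxidation. It had 102, 69.8 and 112 CPM in WT corn oil, 106, 110 and 88.6 in WT CITCO, 92.2, 86.2 and 66.7 in hCAR/hPXR CITCO and 73.7, 105 and 79.7 in Car KO/hPXR CITCO. The 4 groups overlapped. Its intervals were -0.32 to 0.51 log2 in WT CITCO against WT corn oil, -0.73 to 0.12 in hCAR/hPXR against WT CITCO, -0.67 to 0.19 in Car KO/hPXR against WT CITCO and -0.49 to 0.36 in hCAR/hPXR against Car KO/hPXR CITCO. The carnitine shuttle genes listed as partners (Cpt1a, Cpt2, Crat, Acsl1 and Slc22a5) summed to 987 ± 153 CPM in WT corn oil, 1118 ± 67.3 in WT CITCO, 779 ± 105 in hCAR/hPXR CITCO and 837 ± 57.7 in Car KO/hPXR CITCO (SD, n = 3 each). With edgeR and limma none was called, and DESeq2 called Acsl1 in hCAR/hPXR against WT CITCO.

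Of the di- and tricarboxylate carriers, Slc25a1 exports citrate, Slc25a10 exchanges dicarboxylates for phosphate and Slc25a11 exchanges oxoglutarate for malate. Slc25a1 had 61.8, 72.6 and 73.7 CPM in WT corn oil, 68.1, 71.2 and 75.3 in WT CITCO, 65.3, 52.1 and 50.9 in hCAR/hPXR CITCO and 78.8, 72.6 and 68.2 in Car KO/hPXR CITCO. The 3 hCAR/hPXR libraries lay below the other groups given CITCO, and the highest of them overlapped with WT corn oil. The log2 fold change in hCAR/hPXR against Car KO/hPXR CITCO was -0.38 (95% interval -0.74 to -0.02, adjusted p = 0.441), which did not pass. Slc25a10 ranged from 45.0 to 87.0 CPM and Slc25a11 from 44.4 to 62.5 CPM, with overlap among all groups for Slc25a10.

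Acly splits the citrate that Slc25a1 exports, and it was called. It had 99.0, 207 and 224 CPM in WT corn oil, 114, 103 and 144 in WT CITCO, 131, 142 and 178 in hCAR/hPXR CITCO and 444, 215 and 342 in Car KO/hPXR CITCO. The Car KO/hPXR libraries lay above all those of WT CITCO and hCAR/hPXR CITCO, in 3 of 3 mice. Acly rose 2.78-fold in Car KO/hPXR against WT CITCO, from 120 ± 21.4 to 333 ± 115 CPM (SD, n = 3; edgeR's adjusted p = 0.0304). With each library left out in turn its log2 fold change was 1.21 to 1.71, against 1.47 with all, but the call was lost in some of these fits: the adjusted p was 0.203 without WT CITCO replicate 1, 0.210 without WT CITCO replicate 2, 0.126 without Car KO/hPXR replicate 1 and 0.0933 without Car KO/hPXR replicate 3, and 0.267 without both libraries that held the most muscle transcripts. Slc25a1 stood at a log2 fold change of 0.04 in the same comparison (95% interval -0.32 to 0.39, adjusted p = 0.970).

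Alas1, which joins glycine and succinyl-CoA in the matrix to begin heme synthesis, was listed as the partner of the glycine carrier Slc25a38. It had 186, 51.5 and 129 CPM in WT corn oil, 477, 268 and 488 in WT CITCO, 375, 418 and 245 in hCAR/hPXR CITCO and 290, 262 and 239 in Car KO/hPXR CITCO. All 9 libraries of mice given CITCO lay above the 3 given corn oil. Alas1 rose 3.33-fold in WT CITCO against WT corn oil, from 122 ± 67.7 to 411 ± 124 CPM (SD, n = 3; edgeR's adjusted p = 0.0264). Leaving out each library in turn gave a log2 fold change of 1.39 to 2.18, against 1.73 with all. The adjusted p was 0.0843 without WT corn oil replicate 2, 0.152 without WT corn oil replicate 3, 0.204 without WT CITCO replicate 1 and 0.0508 without Car KO/hPXR replicate 2. It was 0.0572 when only the groups compared were fitted, and 0.254 without both libraries that held the most muscle transcripts. Slc25a38 itself, at 7.17 to 22.9 CPM, was not called.

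Over the whole list of 32 partner enzymes, 31 were tested. Alas1 was the single call in WT CITCO against WT corn oil and Acly in Car KO/hPXR against WT CITCO; edgeR called 0 in the remaining comparisons, beside 0.233%, 0.407%, 0.256% and 0.582% of all genes in the order given for the nucleotide carriers. An unadjusted p under 0.05 was met by 3, 1, 5 and 3 of the 31, beside 9.13%, 8.81%, 9.30% and 10.6% of all genes. The list's median log2 fold changes were -0.10, -0.06, 0.16 and -0.16 in the same order, with 10, 14, 20 and 6 of 31 genes higher. DESeq2 called 1 in each comparison (Alas1, Acsl1, Acly and Acly in that order), beside 0.500%, 1.96%, 1.88% and 2.46% of all genes, and limma called Alas1 and Acly where edgeR did.

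Slc25a37 (mitoferrin) and Slc25a28 bring iron into the matrix. Slc25a37 held between 66.7% and 87.6% of the counts of the pair. Their sum was 78.5 ± 7.49 CPM in WT corn oil, 76.5 ± 8.93 in WT CITCO, 85.9 ± 16.1 in hCAR/hPXR CITCO and 69.3 ± 12.3 in Car KO/hPXR CITCO (SD, n = 3 each). The uncoupling protein-like genes Slc25a14, Slc25a27 and Slc25a30 summed to 1.16 to 9.86 CPM, and none passed the count filter.

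Of the genes without an assigned substrate, Slc25a47, a carrier expressed mainly in liver, was by far the most abundant. It had 497, 539 and 933 CPM in WT corn oil, 340, 338 and 471 in WT CITCO, 380, 371 and 319 in hCAR/hPXR CITCO and 545, 445 and 823 in Car KO/hPXR CITCO. The WT corn oil libraries lay above all 6 of WT CITCO and hCAR/hPXR CITCO, and replicate 3 of WT corn oil and of Car KO/hPXR CITCO stood well above the others. The Car KO/hPXR and WT CITCO libraries overlapped. The log2 fold change was -0.78 in WT CITCO against WT corn oil (95% interval -1.29 to -0.27, adjusted p = 0.278), 0.66 in Car KO/hPXR against WT CITCO (0.15 to 1.17, adjusted p = 0.361) and -0.76 in hCAR/hPXR against Car KO/hPXR CITCO (-1.27 to -0.25, adjusted p = 0.225). None passed with the count filter; without it edgeR called all 3 (adjusted p = 0.00361, 0.0383 and 0.00697). Between hCAR/hPXR and WT CITCO the value was -0.10 (-0.61 to 0.41). The values rested in part on the high libraries: the first was -0.44 without WT corn oil replicate 3 (adjusted p = 0.734). Without Car KO/hPXR replicate 3 the second was 0.37 (adjusted p = 0.793) and the last -0.48 (adjusted p = 0.649). Over 4 groups the adjusted p was 0.116 with edgeR and 0.00556 with DESeq2, which adjusted over 3665 genes. The remaining tested genes of the class were at mean levels of 38.4 CPM (Slc25a46), 24.2 (Slc25a45) and 21.7 (Slc25a48), without length division.

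The import route of the carriers was listed as 12 genes, all tested. With edgeR 0 were called in each pairwise comparison, with 0, 1, 0 and 1 of the 12 at an unadjusted p under 0.05 in the order given for the nucleotide carriers, beside 9.13%, 8.81%, 9.30% and 10.6% of all genes, and DESeq2 and limma also called 0. Their medians were -0.09, -0.08, 0.04 and -0.12 log2. The small TIM chaperones, chiefly Timm13, summed to 296 to 416 CPM, the TOM genes, chiefly Tomm70a, to 210 to 304 CPM and the TIM22 genes to 28.4 to 55.9 CPM.

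Other routes for metabolites across both mitochondrial membranes were listed as 14 genes, of which 11 were tested. With edgeR 0 were called in each pairwise comparison, with 2, 1, 3 and 0 of the 11 at an unadjusted p under 0.05, beside the same shares of all genes, and DESeq2 and limma also called 0. The medians were 0.02, -0.05, 0.15 and -0.08 log2. Summed levels were 374 to 525 CPM for the sideroflexins, 224 to 348 CPM for genes listed as carriers with other names (chiefly Mtch2), 238 to 309 CPM for the outer membrane channels Vdac1, Vdac2 and Vdac3, and 179 to 310 CPM for the pyruvate carrier genes Mpc1 and Mpc2. No substrate is assigned here to Mtch2, so the sum that it leads is not read as the level of a metabolite route. Ucp1 and Ucp3 had 0 counts in all 12 libraries.

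On GRCm38 the 42 carriers lie on 19 chromosomes. Slc25a13 (ENSMUSG00000015112) is at chr6:6041218-6217173, Slc25a47 (ENSMUSG00000048856) at chr12:108836046-108856815, Slc25a5 (ENSMUSG00000016319) at chrX:36795651-36798807, Slc25a51 (ENSMUSG00000045973) at chr4:45395923-45408766 and Slc25a25 (ENSMUSG00000026819) at chr2:32414487-32451445. Exons of 13 of the 42 share bases with an exon of another annotated gene, and 11 of these 13 were tested. The partner is on the opposite strand for 11, among them Slc25a10 with Gm11788 and Slc25a23 with Gm17168, and on the same strand for Slc25a47 (Mir345, 5 bases) and Slc25a51. Counts of these genes are less certain where reads from the shared bases were assigned.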

How the data were processed

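The authors deposited expected counts per gene (Trimmomatic 36, STAR 2.5.2 and RSEM 1.3 on an Ensembl annotation of GRCm38) and log2-scale values after DESeq2's variance-stabilising transformation. Rounded counts were tested with edgeR 4.0.16 under R 4.3.3 (filterByExpr, TMM, quasi-likelihood F test on 12 libraries, 1 mean per group), DESeq2 1.42.0 and limma 3.58.1. Adjusted p-values use the Benjamini-Hochberg method over all genes tested. Permutation tests used log2 CPM plus 1. A value within 0.005 of an integer was taken as whole.

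Named carriers are those called, those with an unadjusted p under 0.05, the 10 with the highest mean CPM and the one with the largest fold change in each comparison; genes of the other lists are named where called or as partners of a named carrier. Others named (those not tested, relatives of named carriers and remaining members by level) were chosen after their values were seen. The members and lists were chosen with earlier results of these data known. Some members of the lists are not reported here. Gene coordinates are from GENCODE on GRCm38, another release than the authors'.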

Additional observations from a re-analysis of the deposited data

How the results depend on the processing

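Carrier counts, medians and named fold changes were recomputed, where a fit held the gene (Slc25a4 did not pass the filter in 3), with DESeq2's size factors in edgeR, DESeq2, limma on the deposited values, only the groups compared, no count filter, a strict count filter, no fold threshold (counts), a replicate block and, chosen after seeing the data, without both libraries that held the most muscle transcripts. Of 75 such values of counts and medians 65 kept within their limits and 10 moved; of 133 values of named genes 124 kept their direction and side of the threshold, 3 no longer passed and 6 newly passed.

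Without a count filter edgeR called 1, 1, 2 and 1 of 42 carriers in WT CITCO against WT corn oil, hCAR/hPXR against WT CITCO, Car KO/hPXR against WT CITCO and hCAR/hPXR against Car KO/hPXR CITCO, and 3 over 4 groups, beside 179, 184, 227, 233 and 540 of all 20067 genes. These were Slc25a47 in each but hCAR/hPXR against WT CITCO, Slc25a51 there, Slc25a25 in Car KO/hPXR against WT CITCO, and all of them over 4 groups; the cause was not tested. DESeq2 called 1 in hCAR/hPXR against WT CITCO and 2 over 4 groups, with fewer genes in the adjustment. The median in hCAR/hPXR against Car KO/hPXR CITCO was -0.16 with DESeq2 (19 carriers), -0.14 with no count filter (42) and -0.17 without the muscle libraries, against -0.07 (30). These medians are thus over different sets of carriers. The part of this in the difference was not tested.

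With the replicate block the carrier calls were 0 in all 5 tests. Between replicates with the same number r was -0.0568 to 0.0750 (median 0.0288, 18 pairs), against -0.116 to 0.136 (median -0.0100) over the 36 others.

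Leaving out each library in turn gave 0 carrier calls in each pairwise comparison, and 0 to 1 over 4 groups (1 without WT corn oil replicate 1, Slc25a25 at an adjusted p of 0.0314). The medians ranged from 0.02 to 0.09, from -0.14 to -0.0153, from -0.0281 to 0.0784 and from -0.18 to -0.0544. Slc25a4 in WT CITCO against WT corn oil ranged from -0.24 to 2.08, and reversed without WT CITCO replicate 1. Of 204 such values of named genes 195 kept their direction and side of the threshold, 8 no longer passed, all of Alas1 or Acly, and 1 reversed.

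With 3 mice a group and 1167027 to 2341572 counts a library, carriers with few counts were estimated with wide intervals, and the 12 carriers under the count filter were tested only in other fits, without a call.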
